A study of Mus musculus with 4 samples.

Results

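The genes described here are the SR and hnRNP splicing regulators and the tissue-restricted regulators that act beside them. They were taken by gene symbol from the expression table: every *Srsf* and *Hnrnp* gene, *Srrm1* to *Srrm4*, *Ptbp1* to *Ptbp3*, *Rbfox1* to *Rbfox3*, *Celf1* to *Celf6*, *Mbnl1* to *Mbnl3*, *Nova1*, *Nova2*, *Esrp1* and *Esrp2*. This gave 54 of the 23997 genes, of which 20 were *Hnrnp* genes, 11 *Srsf* genes, 4 *Srrm* genes and 19 members of the smaller families. The RNA came from EGFP+ cells sorted from the cochlea of C57BL/6 mice at postnatal day 3, either *Lgr5*-EGFP-IRES-CreERT2 animals (Lgr5+ progenitors, called Lgr5+ cells below) or *Lgr6*-EGFP-IRES-CreERT2 animals (Lgr6+ progenitors, called Lgr6+ cells). In both lines EGFP is driven from the receptor's own locus, so each population is defined by that reporter and by a sorting gate. The study's methods describe the replicates of a population as fractions of the same sorted RNA. The labels list 2 libraries for each population, while the deposited table gives 1 combined FPKM (a fragment count scaled by transcript length and by depth) for each population, so no spread between replicates can be given and no difference below has a replicate check.

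Splicing regulators decide which exons of a pre-mRNA are joined. SR proteins carry RNA recognition motifs and a tail rich in arginine and serine, and they mostly promote the use of exons to which they bind, whereas many hnRNP proteins coat nascent RNA and repress splice sites. On this widely expressed background, Ptbp, Rbfox, Celf, Mbnl, Nova, Esrp and the proteins of *Srrm3* and *Srrm4* switch exons in particular tissues. In the inner ear, *Srrm4* is known to be required for hair cells (HCs), where it promotes the inclusion of very short exons, and *Esrp1*, an epithelial regulator, is known to be required for the development of the cochlea.

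The summed FPKM over all genes was 754163 in Lgr5+ cells and 627932 in Lgr6+ cells. Differences are given as the log2 change, the value of log2(FPKM + 1) in Lgr6+ cells less that in Lgr5+ cells. A gene was kept when its FPKM was at least 1 in at least 1 population, and a kept gene was called when the populations were at least 1.5-fold apart on this scale, a log2 change of at least 0.585 in either direction. Low values of genes with a single transcript lay on steps of FPKM times transcript length in kilobases, of 0.128 in Lgr5+ cells and 0.0395 in Lgr6+ cells. The step of Lgr5+ cells was 3.23 times that of Lgr6+ cells, so the low values of Lgr5+ cells are the coarser ones. The read numbers per sample that the study gives span a smaller ratio, so this is not given as a ratio of sequencing depths. Whether a step is 1 fragment was not tested. *Lgr5* itself had an FPKM of 9.65 in Lgr5+ cells and 25.0 in Lgr6+ cells, and *Lgr6* had 2.06 and 2.90. The *Lgr5* transcript was thus 2.59 times as high in the population labelled Lgr6+. The study describes Lgr6+ cells as a subpopulation of the Lgr5+ progenitors. The cause of the higher *Lgr5* value was not tested. Which population is which rests here on the column names of the table, and every direction below depends on them. In bulk RNA of sorted cells, fewer cells of a type and less RNA per cell cannot be told apart.

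Of the 54 splicing regulators, 47 were kept and 11 of these were called, 6 higher in Lgr6+ cells and 5 higher in Lgr5+ cells. This was 23.4% of the kept splicing regulators, against 51.8% of all 13436 kept genes, of which 28.5% were higher in Lgr6+ cells and 23.3% in Lgr5+ cells. The split between the directions depended on the scaling and the filter. It was 5 and 1 after quantile normalization, where 25.5% of all kept genes were called in each direction. It was 9 and 1 when both populations were scaled to the same summed FPKM, which raises every gene of Lgr6+ cells alike and gave 36.9% and 16.3% of all kept genes. It was 4 and 5 with a minimum FPKM of 5 or with the minimum of 1 applied to both populations, since *Nova1* and *Srsf4* were then not kept. The 6 called toward Lgr6+ cells were *Srsf4*, *Nova1*, *Srrm4*, *Hnrnpll*, *Mbnl2* and *Rbfox3*, and the 5 called toward Lgr5+ cells were *Esrp1*, *Hnrnpab*, *Srrm1*, *Hnrnpu* and *Hnrnpl*. The median log2 change was -0.10 over the 47 kept splicing regulators and 0.03 over all kept genes, and 18 of the 47 lay within 0.2 of no change. The sign of the former is not settled, since it was 0.0198 without the filter, 0.0178 after quantile normalization and 0.16 under the same summed FPKM.

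The promoters of 4 called genes are shown because they include, in each direction, genes that were past 1.5-fold. *Hnrnpab* and *Hnrnpl* were higher in Lgr5+ cells, and *Mbnl2* and *Srrm4* in Lgr6+ cells. Each sequence runs from 250 bases before to 50 bases after a transcription start of RefSeq on GRCm38.p6, 5′ to 3′ on the strand of the gene. Capitals mark the CCAAT box (CCAAT), the GC box (GGGCGG) and the TATA box (TATAAA) on either strand.
*Hnrnpab*, chr11:51606832-51607131, minus strand: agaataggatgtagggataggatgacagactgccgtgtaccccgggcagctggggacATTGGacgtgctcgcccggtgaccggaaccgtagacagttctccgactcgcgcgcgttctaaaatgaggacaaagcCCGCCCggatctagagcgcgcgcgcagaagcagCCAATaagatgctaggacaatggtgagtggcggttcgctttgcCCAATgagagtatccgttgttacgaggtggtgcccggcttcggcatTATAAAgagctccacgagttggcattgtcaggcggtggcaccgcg
*Hnrnpl*, chr7:28810640-28810939, plus strand: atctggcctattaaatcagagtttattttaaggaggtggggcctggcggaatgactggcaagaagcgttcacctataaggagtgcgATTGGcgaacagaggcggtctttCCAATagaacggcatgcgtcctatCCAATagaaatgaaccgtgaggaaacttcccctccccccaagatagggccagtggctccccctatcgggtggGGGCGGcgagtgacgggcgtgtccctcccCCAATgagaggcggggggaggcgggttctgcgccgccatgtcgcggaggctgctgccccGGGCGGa
*Mbnl2*, chr14:120275419-120275718, plus strand: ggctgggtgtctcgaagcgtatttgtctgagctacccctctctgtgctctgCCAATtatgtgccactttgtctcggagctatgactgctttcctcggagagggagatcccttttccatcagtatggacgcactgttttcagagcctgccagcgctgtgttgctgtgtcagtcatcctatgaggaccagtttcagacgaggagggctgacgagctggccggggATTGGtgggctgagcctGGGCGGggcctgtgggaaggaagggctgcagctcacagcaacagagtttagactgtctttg
*Srrm4*, chr5:116591768-116592067, minus strand: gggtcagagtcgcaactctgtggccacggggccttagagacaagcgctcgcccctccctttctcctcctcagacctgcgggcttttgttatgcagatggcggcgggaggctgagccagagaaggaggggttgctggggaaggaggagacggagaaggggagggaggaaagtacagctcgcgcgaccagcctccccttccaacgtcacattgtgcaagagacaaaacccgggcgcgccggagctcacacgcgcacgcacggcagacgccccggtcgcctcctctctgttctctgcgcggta
The *Hnrnpab* promoter held 3 CCAAT boxes, the *Hnrnpl* promoter 4 and the *Mbnl2* promoter 2, while none of the letters searched was in that of *Srrm4*. The TATAAA of *Hnrnpab* lies 5 to 10 bases after the transcription start, not before it. A GGGCGG of *Hnrnpl* lies 43 to 48 bases after the start. A promoter entry was matched for 47 of the 54 splicing regulators, those of *Celf4*, *Esrp1*, *Esrp2*, *Hnrnpll*, *Hnrnpul2*, *Ptbp3* and *Rbfox2* being missing. Among kept genes, CCAAT was in 53.7% of the 41 promoters of splicing regulators and in 38.2% of all 10030 promoters. GGGCGG was in 68.3% of them, against 64.8%, and TATAAA in 14.6%, against 7.03%. The median number of CpG dinucleotides was 28 in the promoters of the kept splicing regulators and 21 in those of all kept genes. These counts describe the letters of the windows and were not tested.

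The levels ran from 0 to an FPKM of 279, and the most abundant splicing regulators were *Srsf* and *Hnrnp* genes. In Lgr5+ cells 16 of the 54 were under an FPKM of 10, of which 3 were listed at 0. In Lgr5+ cells 19 of the 54 had an FPKM of at least 100, which 4.48% of all genes reached, and in Lgr6+ cells 12 did, against 4.13% of all genes. Of the FPKM summed over all genes, the 54 supplied 0.471% in Lgr5+ cells and 0.518% in Lgr6+ cells. Among genes with a mean FPKM from 50 to 300, a range set after the values were seen, 4 of 26 splicing regulators were called, against 38.9% of all 1529 genes in that range. Under a mean of 50, 7 of 21 kept splicing regulators were called, or 33.3%. Their median log2 change regardless of sign was 0.28, against 0.65 for all kept genes under 50. Across the 47 kept splicing regulators the order of the levels had a Spearman rho of 0.946 between the populations, and across all kept genes it was 0.846. Both are correlations across genes, which are not independent replicates, and they share the same libraries.

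**Figure D1:**
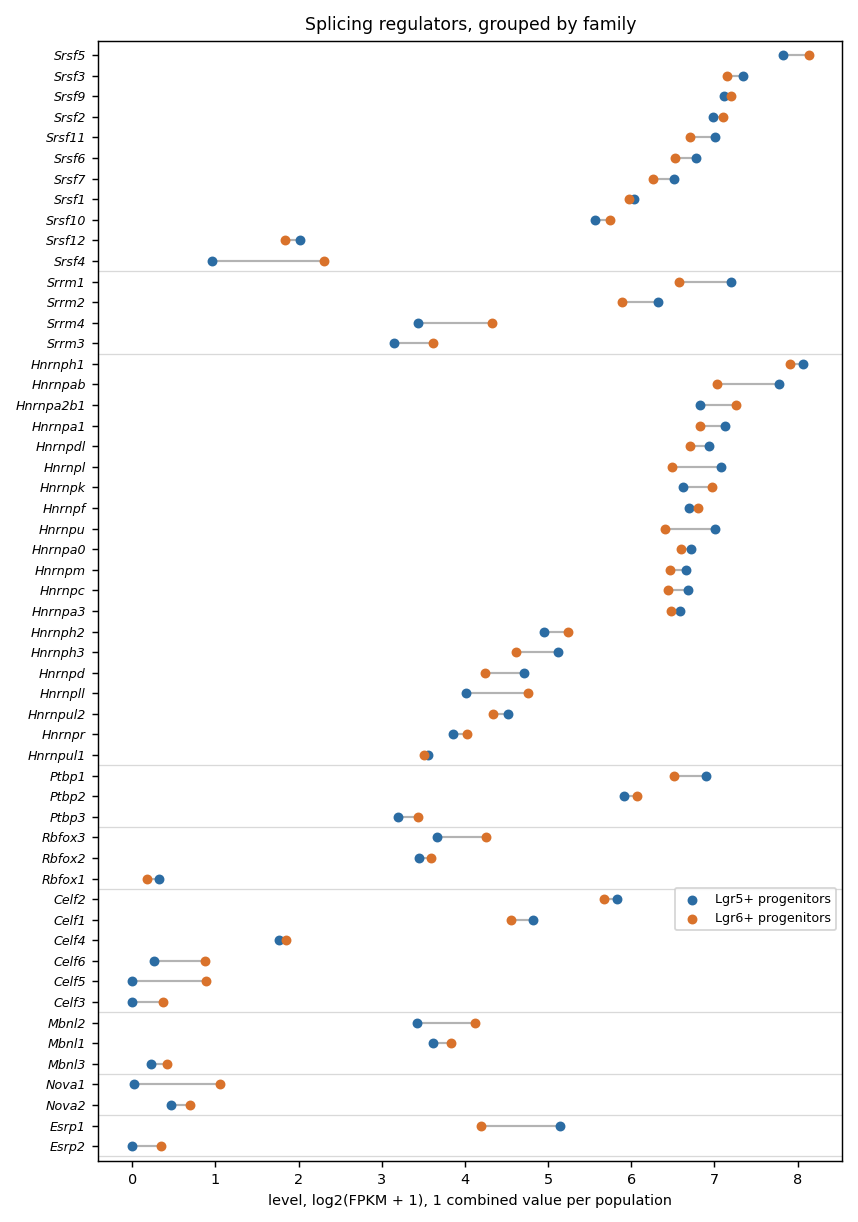
The level of each of the 54 splicing regulators on a log2(FPKM + 1) axis, with 1 combined value for Lgr5+ cells (blue) and 1 for Lgr6+ cells (orange), ordered by mean FPKM within each family and with grey lines joining the populations. Most *Srsf* and *Hnrnp* genes lie close together between 6 and 8, while *Srsf4*, *Srrm4*, *Hnrnpll*, *Nova1* and *Esrp1* have wide gaps.

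Of the 11 *Srsf* genes, all were kept and only *Srsf4* was called, which was 9.09%, beside 51.8% of all kept genes. The family's summed FPKM was 1091 in Lgr5+ cells and 1095 in Lgr6+ cells, and its median log2 change was -0.06, which turned to 0.05 after quantile normalization and 0.20 under the same summed FPKM. *Srsf5* was the highest in both populations, with an FPKM of 226 in Lgr5+ cells and 279 in Lgr6+ cells, a log2 change of 0.31. It supplied 20.7% of the family's sum in Lgr5+ cells and 25.5% in Lgr6+ cells. *Srsf3*, the smallest SR protein, had 161 and 142, and *Srsf9* had 138 and 146. *Srsf2*, a component of nuclear speckles, had 125 and 137. *Srsf11* had 128 and 104, which left the same 5 genes at the top of the family in both populations.

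The middle of the *Srsf* family also moved little. *Srsf1*, the prototype of the SR proteins, had an FPKM of 64.4 in Lgr5+ cells and 61.9 in Lgr6+ cells, a log2 change of -0.06. *Srsf6* had 108.5 and 91.3, *Srsf7* had 90.5 and 75.4, and *Srsf10*, which acts as a repressor when it is dephosphorylated, had 46.4 and 52.8. *Srsf12* was low in both, with 3.04 and 2.57. Apart from *Srsf4*, the family's log2 changes ran from -0.30 to 0.31.

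*Srsf4*, at chr4:131873639-131920029, had the widest gap of all kept splicing regulators on this scale, but it was kept through its value in Lgr6+ cells alone and was not kept under either stricter filter. Its FPKM was 0.939 in Lgr5+ cells and 3.96 in Lgr6+ cells, a log2 change of 1.35. For the longest of its 5 transcripts, of 3100 bases, these values correspond to 21 and 290 steps. *Srsf4* was thus rare beside its close relative *Srsf5*, whose FPKM was 241 times that of *Srsf4* in Lgr5+ cells and 70.6 times in Lgr6+ cells. The interval of *Srsf4* in the table overlaps that of *Gm12992*, which had an FPKM of 23.3 in Lgr5+ cells and 13.2 in Lgr6+ cells, and reads shared by overlapping genes cannot be assigned with certainty.

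Of the SR-related genes, *Srrm1* and *Srrm2* were lower and *Srrm3* and *Srrm4* were higher in Lgr6+ cells, and 1 in each direction was called. This was 50% of the 4 genes, beside 51.8% of all kept genes. *Srrm4*, at chr5:116438722-116591817, had an FPKM of 9.84 in Lgr5+ cells and 19.0 in Lgr6+ cells, a log2 change of 0.88. Its relative *Srrm3* had 7.83 and 11.2, a log2 change of 0.47 that did not reach 1.5-fold. The FPKM of *Srrm4* was 1.26 times that of *Srrm3* in Lgr5+ cells and 1.69 times in Lgr6+ cells. The antisense gene *Srrm4os*, whose interval overlaps *Srrm4*, had 7.46 and 13.9, and the strand setting of the counting is not given in the sources used here, so reads of the overlap cannot be told apart.

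Markers of HCs are given beside *Srrm4*. Of 10 HC markers, all were kept and 6 were called, each toward Lgr6+ cells. This was 60%, beside 28.5% of all kept genes called in that direction and 51.8% called in either. The summed FPKM of the 10 was 1679 in Lgr5+ cells and 2226 in Lgr6+ cells, and none was listed at 0. *Otof*, the synaptic calcium sensor of HCs, had an FPKM of 41.6 and 171, and *Gfi1*, a transcription factor of HCs, had 19.5 and 55.5, while *Pvalb* had 477 and 408. The part of HC content in the *Srrm4* difference was not tested.

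*Srrm1*, a coactivator that bridges splicing factors, lies at chr4:135320484-135353214 and had an FPKM of 145 in Lgr5+ cells and 94.6 in Lgr6+ cells, a log2 change of -0.61. *Srrm2*, a scaffold of nuclear speckles, had 78.7 and 58.2, a log2 change of -0.43, and was not called. The call of *Srrm1* was close to the threshold and was lost after quantile normalization and after scaling to the same summed FPKM.

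All 20 *Hnrnp* genes were kept, 14 of them lower and 6 higher in Lgr6+ cells, with a median log2 change of -0.17. This direction depended on the scaling: 9 were higher and 11 lower after quantile normalization (median -0.08), and 14 were higher and 6 lower under the same summed FPKM (median 0.09). Their summed FPKM was 1872 in Lgr5+ cells and 1651 in Lgr6+ cells, which was 0.248% and 0.263% of the sum over all genes. *Hnrnph1*, a binder of G-rich sequences, was the highest in both populations, with an FPKM of 267 in Lgr5+ cells and 239 in Lgr6+ cells. *Hnrnpab* had rank 2 in Lgr5+ cells and rank 3 in Lgr6+ cells, and *Hnrnpa2b1* moved from rank 7 to rank 2. The order of the family had a Spearman rho of 0.832 over its 20 genes, and 3 of the 5 highest genes were shared.

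Of the 20 *Hnrnp* genes, 3 were called toward Lgr5+ cells and 1 toward Lgr6+ cells, which was 20%, beside 51.8% of all kept genes. The 3 called toward Lgr5+ cells were abundant ones. *Hnrnpab*, at chr11:51584757-51606881, had an FPKM of 219 in Lgr5+ cells and 129 in Lgr6+ cells, a log2 change of -0.75. *Hnrnpu*, a large nuclear matrix protein, at chr1:178328300-178337784, had 127 and 83.9, a log2 change of -0.59. *Hnrnpl*, which binds CA-rich RNA, at chr7:28810890-28822266, had 134 and 89.2, a log2 change of -0.59 that barely passed. All 3 calls were lost after quantile normalization and after scaling to the same summed FPKM, although each gene stayed lower in Lgr6+ cells under both. *Phykpl*, whose interval overlaps *Hnrnpab*, had an FPKM of 0.220 in Lgr5+ cells and 8.77 in Lgr6+ cells.

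*Hnrnpll*, at chr17:80029487-80062268, was the only *Hnrnp* gene called toward Lgr6+ cells. This relative of *Hnrnpl*, known for the switch of *Ptprc* exons in lymphocytes, had an FPKM of 15.1 in Lgr5+ cells and 26.0 in Lgr6+ cells, a log2 change of 0.74. The FPKM of *Hnrnpl* was 8.88 times that of *Hnrnpll* in Lgr5+ cells and 3.43 times in Lgr6+ cells, a difference of 2.59-fold that was 2.36-fold after quantile normalization. The 8 macrophage markers had a summed FPKM of 1.12 in Lgr5+ cells and 205 in Lgr6+ cells. The 6 that were kept were all under 1 in Lgr5+ cells, so that the filter fixed the direction of their calls. *Aif1*, *C1qb*, *C1qc*, *Csf1r* and *Tyrobp* stood at 0 in the Lgr5+ column, and *C1qb* had 69.9 in Lgr6+ cells and *C1qc* had 47.1. *Ptprc* itself was close to absent from both populations, with 0 and 0.00814. Their part in the *Hnrnpll* difference was not tested.

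The other abundant *Hnrnp* genes were not called. *Hnrnpa2b1* had an FPKM of 113 in Lgr5+ cells and 152 in Lgr6+ cells, a log2 change of 0.43, and *Hnrnpk*, a poly(C)-binding protein, had 97.2 and 124, a log2 change of 0.35. Both passed 1.5-fold only under the same summed FPKM. *Hnrnpa1*, which represses many exons, had 139 and 112, a log2 change of -0.31. *Hnrnpa2b1* was therefore at 0.808 times the FPKM of *Hnrnpa1* in Lgr5+ cells and at 1.35 times in Lgr6+ cells. Genes of this family have processed pseudogene copies, with which reads can be shared.

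The remaining *Hnrnp* genes had log2 changes from -0.51 for *Hnrnph3* to 0.28 for *Hnrnph2*. *Hnrnpc*, which binds uridine tracts, had an FPKM of 101.6 in Lgr5+ cells and 86.0 in Lgr6+ cells. *Hnrnpm* had 100.4 and 87.3, *Hnrnpf* had 103 and 111, *Hnrnpa3* had 94.9 and 88.3, and *Hnrnpdl* had 121 and 103. *Hnrnpr* and *Hnrnpul1* were the lowest of the family, with 13.5 and 15.3 for the former and 10.7 and 10.4 for the latter.

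**Figure D2:**
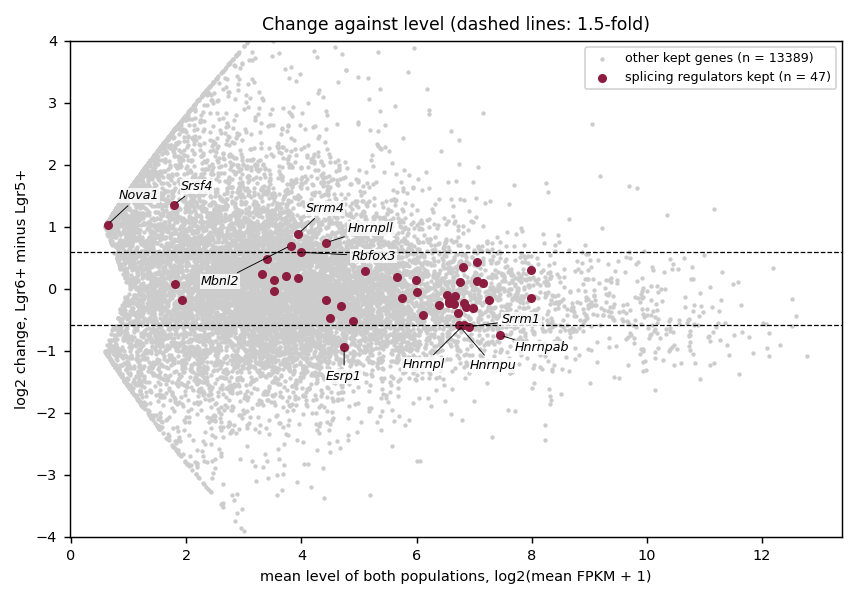
The log2 change (Lgr6+ minus Lgr5+) of each kept gene against the log2 of its mean FPKM plus 1, with splicing regulators in red, other kept genes in grey and dashed lines at 1.5-fold. The 47 splicing regulators lie mostly inside the lines and the 11 called ones are named; 51 other genes lie outside the plotted range of -4 to 4.

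The Ptbp proteins bind pyrimidine tracts, *Ptbp1* outside the nervous system and *Ptbp2* chiefly in neurons. *Ptbp1* had an FPKM of 118 in Lgr5+ cells and 90.0 in Lgr6+ cells, a log2 change of -0.39. *Ptbp2* had 59.4 and 65.9, a log2 change of 0.15, and *Ptbp3* had 8.17 and 9.78, a log2 change of 0.23. None of the 3 was called, beside 51.8% of all kept genes. *Ptbp1* stood at 1.99 times the level of *Ptbp2* in Lgr5+ cells and at 1.37 times in Lgr6+ cells. The table gives *Ptbp1* an interval of 672333 bases, which overlaps 47 other genes, so its value may share reads with some of them.

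Among the Rbfox, Celf, Mbnl and Nova genes, 8 of 14 were kept, and the 3 called were higher in Lgr6+ cells, beside 28.5% of all kept genes in that direction. *Rbfox3*, whose protein is the neuronal antigen NeuN, lies at chr11:118489760-118911597 and had an FPKM of 11.7 in Lgr5+ cells and 18.04 in Lgr6+ cells, a log2 change of 0.59. This barely passed and was lost after quantile normalization and after scaling to the same upper quartile. *Rbfox2*, the widely expressed member, had 9.89 and 11.0, and *Rbfox1* stayed under an FPKM of 1 in both, with 0.248 and 0.134.

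*Mbnl2*, at chr14:120275669-120431698, had an FPKM of 9.74 in Lgr5+ cells and 16.4 in Lgr6+ cells, a log2 change of 0.70. The Mbnl proteins drive the shift from fetal to adult exon use in several tissues. *Mbnl1* had 11.3 and 13.2, a log2 change of 0.21, so *Mbnl1* was the higher of the pair in Lgr5+ cells and *Mbnl2* in Lgr6+ cells. *Mbnl3* was low in both, with 0.173 and 0.339.

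The Celf proteins bind GU-rich RNA and oppose Mbnl at some exons. None of the 3 kept *Celf* genes was called, beside 51.8% of all kept genes. *Celf2* had an FPKM of 55.8 in Lgr5+ cells and 49.98 in Lgr6+ cells, and *Celf1* had 27.3 and 22.4. *Celf4* had 2.41 and 2.60. *Celf3*, *Celf5* and *Celf6* were under 1 in both populations and were not kept: *Celf3* and *Celf5* were listed at 0 in Lgr5+ cells and had 0.290 and 0.844 in Lgr6+ cells, and *Celf6* had 0.201 and 0.828.

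*Nova1*, a regulator of neuronal exons, at chr12:46694517-46818775, had an FPKM of 0.0186 in Lgr5+ cells and 1.08 in Lgr6+ cells, a log2 change of 1.03 on the scale with the added 1. For its single transcript of 7000 bases these are 1 step and 186 steps. *Nova1*, like *Srsf4*, was kept through its value in Lgr6+ cells alone and was not kept under either stricter filter. *Nova2* had 0.384 and 0.620 and was not kept.

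Markers of neurons were called in both directions. Of 12 neuronal markers 11 were kept, 2 were called toward Lgr6+ cells and 3 toward Lgr5+ cells. This was 45.5%, beside 51.8% of all kept genes. The filter kept 2 markers through Lgr6+ cells alone and 2 through Lgr5+ cells alone, so it fixed the direction of any call among these. With the minimum of 1 applied to both populations, 7 were kept, 1 called toward Lgr6+ cells and 2 toward Lgr5+ cells. The 12 markers had a summed FPKM of 226 and 200.4, and the kept ones a median log2 change of -0.27. *Snap25*, a protein of synaptic vesicle fusion that HCs also express, had 7.63 and 53.4, whereas *Gap43* had 20.3 and 2.19 and *Prph* was listed at 0 in Lgr5+ cells. *Syt1* had 31.0 and 17.2, and *Stmn2* had 8.74 and 10.2. Of 7 Schwann cell and glial markers 4 were called, all toward Lgr6+ cells, and 1 of the 7 was kept through its value there alone. This was 57.1%, beside 28.5% of all kept genes called in that direction. The summed FPKM of the 7 was 604 and 1734. The part of neuronal, Schwann cell and glial transcripts in the differences of *Nova1*, *Rbfox3* and *Mbnl2* was not tested.

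*Esrp1*, at chr4:11331933-11386783, had the largest log2 change toward Lgr5+ cells among the splicing regulators. Its FPKM was 34.2 in Lgr5+ cells and 17.3 in Lgr6+ cells, a log2 change of -0.94. It was called under 8 of the 9 alternatives, the exception being the 2-fold threshold, but at these levels the filters could not remove it. After scaling, the change was -0.92 under quantile normalization, -0.95 under the same upper quartile and -0.69 under the same summed FPKM. *Esrp2* was listed at 0 in Lgr5+ cells and had 0.274 in Lgr6+ cells. All 8 epithelial markers were called toward Lgr5+ cells, beside 23.3% of all kept genes called in that direction. Their median log2 change was -1.10 and their summed FPKM was 1324 and 607, with none listed at 0. *Krt18* had 265 and 49.6 and *Krt8* had 147 and 47.0. The part of these epithelial transcripts in the *Esrp1* difference was not tested.

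**Figure D3:**
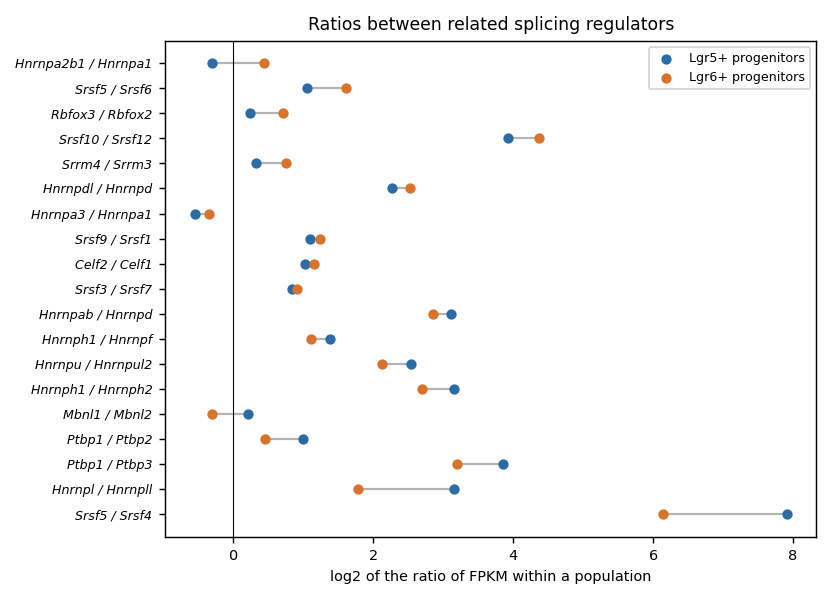
The log2 ratio of FPKM between 19 pairs of related splicing regulators within Lgr5+ cells (blue) and within Lgr6+ cells (orange), ordered by the difference. The ratios *Srsf5* to *Srsf4* and *Hnrnpl* to *Hnrnpll* differ most, and those of *Hnrnpa2b1* to *Hnrnpa1* and *Mbnl1* to *Mbnl2* cross the line of equal levels.

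Ratios between relatives within a population do not change when a whole population is multiplied by a factor, but quantile normalization can change them. Of 19 pairs, which were chosen with the values known, 15 had ratios under 1.5-fold apart between the populations and 4 had ratios at least 1.5-fold apart. These were *Srsf5* to *Srsf4*, *Hnrnpl* to *Hnrnpll*, *Hnrnpa2b1* to *Hnrnpa1* and *Ptbp1* to *Ptbp3*. After quantile normalization *Ptbp1* to *Ptbp3* fell under 1.5-fold, at 1.35-fold, the other 3 stayed past it, and *Srsf5* to *Srsf6* (1.59-fold) and *Srsf10* to *Srsf12* (1.83-fold) passed it. The higher member of the pair changed in 2 pairs, *Mbnl1* with *Mbnl2* and *Hnrnpa2b1* with *Hnrnpa1*. The ratio of *Srsf3* to *Srsf7* was nearly level, at 1.78 in Lgr5+ cells and 1.88 in Lgr6+ cells.

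The other splicing genes were compared as 3 lists. All 48 core spliceosome genes were kept, and 14 were called toward Lgr5+ cells and 3 toward Lgr6+ cells, which was 35.4%, against 51.8% of all kept genes, with a median log2 change of -0.20. Under the same summed FPKM this became 6 and 8, with a median of 0.06. Their summed FPKM was 8846 in Lgr5+ cells and 6613 in Lgr6+ cells. *Snrpd3*, one of the Sm proteins, had an FPKM of 571 and 227, and *Snrpa1*, a component of the U2 particle, had 106 and 41.0. *Snrpa*, a component of the U1 particle, had 71.3 and 138, *Sf3a2* had 4.80 and 8.85, and *Sf3b4*, the other gene called toward Lgr6+ cells, had 35.5 and 60.6.

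Of 12 genes for kinases and phosphatases of SR proteins 11 were kept, with 3 called toward Lgr6+ cells and 2 toward Lgr5+ cells. This was 45.5%, beside 51.8% of all kept genes. The median log2 change was -0.05, which was 0.13 after quantile normalization and 0.21 under the same summed FPKM. *Dyrk1a* had an FPKM of 4.16 in Lgr5+ cells and 14.3 in Lgr6+ cells, *Dyrk1b* had 5.73 and 20.4, and *Clk2*, a kinase of SR proteins, had 20.7 and 42.3. *Prpf4b* had 73.9 and 29.4 and *Ppp1r8*, a phosphatase regulator, had 19.5 and 8.31. The SR protein kinases *Srpk1* and *Srpk2* were not called, with 21.0 and 17.5 for the former and 20.7 and 26.6 for the latter, and *Srpk3* stood at 0 in Lgr5+ cells.

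Of 56 other splicing regulators 54 were kept, 9 called toward Lgr5+ cells and 4 toward Lgr6+ cells. This was 24.1%, against 51.8% of all kept genes, with a median log2 change of -0.04. After quantile normalization these were 5 and 3 with a median of 0.02, and under the same summed FPKM 2 and 10 with a median of 0.22. *Rbm25* had an FPKM of 238 in Lgr5+ cells and 95.1 in Lgr6+ cells, and *Puf60* had 205 and 92.2. *Rbm24*, a regulator known from muscle and HCs, had 33.1 and 86.1, a log2 change of 1.35, and *Rbmx* had 41.2 and 58.9 and was not called. The other 3 genes called toward Lgr6+ cells, *Elavl2*, *Msi1* and *Rbm38*, were kept through their values in Lgr6+ cells alone, with 0.178, 0.379 and 0.163 in Lgr5+ cells and 2.11, 1.65 and 1.59 in Lgr6+ cells. *Tra2b*, an SR-like activator, had 97.0 and 60.4 and was called toward Lgr5+ cells.

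**Figure D4:**
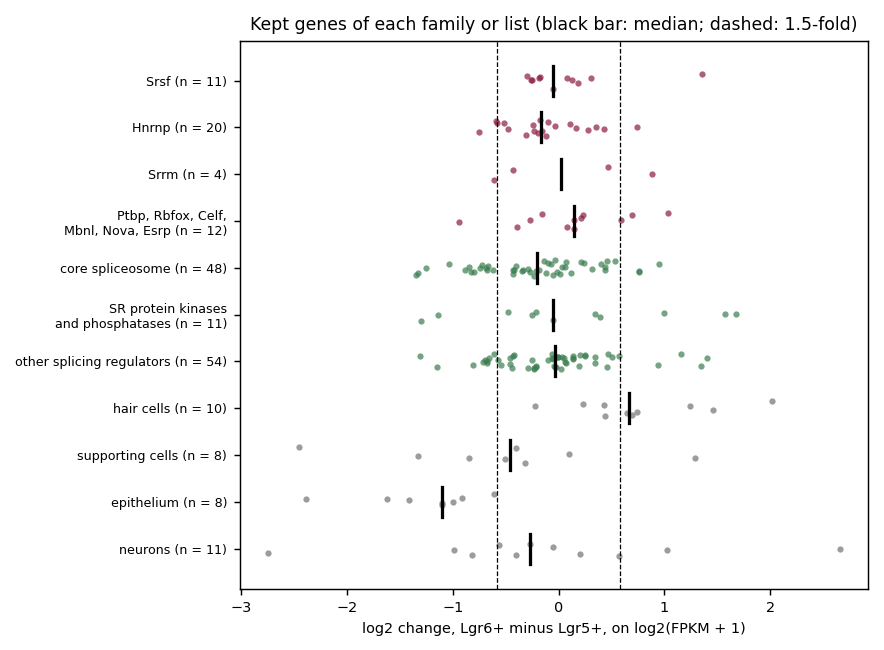
The log2 change (Lgr6+ minus Lgr5+, on log2(FPKM + 1)) of the kept genes of each splicing regulator family (red), other splicing list (green) and of 4 cell type marker lists (grey), with 1 point per gene, black bars at the medians and dashed lines at 1.5-fold. The *Srsf* genes cluster near 0 apart from *Srsf4*, all 8 epithelial markers lie below -0.6 and 9 of the 10 HC markers lie above 0.

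The remaining marker lists are given by their counts, beside 51.8% of all kept genes called. Of 8 supporting cell markers 3 were called toward Lgr5+ cells and 1 toward Lgr6+ cells, with a summed FPKM of 3875 and 3524. *Hes5* had 505 and 91.7, *Sox2* had 139.6 and 54.8 and *S100a1* had 2959 and 3177 in Lgr5+ cells and Lgr6+ cells. All 6 endothelial markers were called toward Lgr6+ cells, 3 of them kept through their values there alone, with a summed FPKM of 20.2 and 126, of which *Kdr* was listed at 0 in Lgr5+ cells, *Pecam1* had 0.303 and 8.31 and *Cldn5* had 2.95 and 27.3. Of 5 erythroid markers 4 were called toward Lgr5+ cells, 2 of them kept through their values there alone, with a summed FPKM of 629 and 108, and of 8 mesenchymal markers 3 were called toward Lgr6+ cells and 1 toward Lgr5+ cells, with 583 and 545. Among the mesenchymal markers *Col1a2* had 15.8 and 90.2, *Col3a1* had 5.07 and 32.4, *Lum* had 179 and 101 and *Vim* had 270.2 and 220.1. Among the erythroid markers *Hba-a1* had 34.1 and 0.710, *Hba-a2* had 142 and 0.712 and *Alas2* had 4.36 and 6.64. The part of these cell types in the values of the splicing regulators was not tested.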

How the data were processed

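RNA-Seq of sorted Lgr5+ and Lgr6+ cochlear progenitors was analysed from the processed table. Per the study's methods, the authors amplified the RNA with a low-input kit, used Trimmomatic for trimming and TopHat for alignment, and obtained FPKM from Cufflinks; versions are not given in the sources used here. The FPKM values that the authors deposited combine the replicates of a population into 1 value. The columns of the authors' own comparison (fold change, *p* and *q*) were not used. The study's text names mm9 and the submitters' processing notes name mm10, and 98.8% of the intervals of 22500 symbols overlapped the RefSeq gene on GRCm38.p6, so positions are given on that build, with starts counted from 1.

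Values were compared on log2(FPKM + 1), and no *p*-value was calculated. Splicing genes and cell type markers were listed, and the named genes set by rule: every called gene, every member of the smaller families, the 3 highest *Srsf* and *Hnrnp* genes, and in each other list the 2 largest changes in each direction at an FPKM of at least 5. The values of single Schwann cell and glial markers that this rule names are not reported here. Further *Srsf* and *Hnrnp* genes, the markers *Kdr*, *Prph* and those listed at 0, and *Clk2*, *Elavl2*, *Msi1*, *Rbm38*, *Sf3b4*, *Srpk1*, *Srpk2*, *Srpk3* and *Tra2b* were named, and the 19 pairs and 4 printed promoters chosen, after their values were seen. The members, the lists and the rules were chosen with earlier results of these data known. Steps of low FPKM values were read from 6908 genes with 1 transcript in GENCODE vM1, as FPKM times transcript length less 200 bases; the table holds no counts. The scripts ran under Python 3.11.15 with pandas 2.3.3, and scipy 1.17.1 gave the ranks, numpy 2.4.6 the arrays and matplotlib 3.10.9 the plots. The code that makes the calls was run on Lgr5+ values with known fold changes put in and no noise, which checks the code only.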

Additional observations from a re-analysis of the deposited data

How the results depend on the processing

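No paired analysis was possible because the table holds 1 combined value per population; for the same reason no replicate was left out and no test was made. The 9 alternatives were a pseudocount of 0.1, a ratio without pseudocount, no filter, a minimum FPKM of 5, an FPKM minimum of 1 applied to both populations, quantile normalization, the same upper quartile, the same summed FPKM and a 2-fold threshold. The 6 splicing regulators called toward Lgr6+ progenitors became 2 at 2-fold (*Nova1* and *Srsf4*), 4 at a minimum FPKM of 5 or with the minimum applied to both populations (without *Nova1* and *Srsf4*) and 9 under the same summed FPKM. The 5 called toward Lgr5+ progenitors became 1 (*Esrp1*) under quantile normalization and under the same summed FPKM, and 0 at 2-fold. The median log2 change of -0.10 turned to 0.0198 without a filter (median over all genes 0) and to 0.0178 after quantile normalization, and to 0.16 under the same summed FPKM, where the median over all kept genes was 0.27. The filters and the 2-fold threshold leave a gene's value as it is; under the alternatives that change it, none of the 11 called genes changed direction. Over all 9 alternatives, 23 calls of single splicing regulators were lost. Of these, 9 were lost at the 2-fold threshold and 4 because a filter left out *Nova1* and *Srsf4*. The others were lost after scaling, 5 under quantile normalization, 4 under the same summed FPKM and 1 under the same upper quartile. Under the same summed FPKM 3 kept genes gained a call. Without a filter *Celf5* and *Celf6* also passed. Low values in Lgr5+ progenitors lay on the larger step and are the coarser ones, as for *Nova1*, whose value there is that of 1 step.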
